A study of Mus musculus with 10 samples.

Results

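Osteopontin, the secreted glycoprotein encoded by Spp1, and the genes of its main cell surface receptors were described across 10 RNA-seq libraries of mouse prostate cancer models with and without a labelled deletion of Arid1a, which encodes a DNA-binding subunit of the SWI/SNF chromatin remodelling complex. The set holds 10 of the 48897 genes listed in each deposited table, chosen by symbol: Spp1, the hyaluronan receptor gene Cd44, the integrin α-chain genes Itgav, Itga4, Itga5 and Itga9, and the integrin β-chain genes Itgb1, Itgb3, Itgb5 and Itgb6. The genes were chosen with their difference between Arid1a KO and control in view, so that difference is given as a description, with no test. All 10 were listed in both tables.

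The first comparison used epithelium sorted as EpCAM+; CD45- from the prostates of 3-month-old male C57BL/6 mice. There were 3 control libraries (A, B and C) with Arid1a intact by their labels and 3 libraries labelled Arid1a KO, in which Arid1a was to be deleted by a Cre under the Probasin promoter, which acts in prostate epithelium. All these mice, the controls included, were genetically engineered, so the controls were not wild type. The second comparison used Myc-CaP, a cancer line from the prostate of a c-Myc transgenic FVB mouse, with an empty vector (EV) in 2 libraries and a stable lentiviral CRISPR guide against Arid1a in 2 libraries. The labels do not say whether libraries of a group came from separate mice or cultures, nor whether the Myc-CaP Arid1a KO libraries are separate lines. For the epithelium the study's methods give mice with n = 3, without tying each library to a mouse. The spread between libraries may therefore be technical. The epithelium values are RPKM and the Myc-CaP values are TPM, both scaled to gene length, and levels were compared only within a table. Read depth was not analysed here, and no counting interval is given.

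Osteopontin is abundant in bone matrix, is made by macrophages and by many carcinomas, and acts as a matrix protein and as a cytokine. Cells bind it through an Arg-Gly-Asp site, which is read by αv integrins (αvβ1, αvβ3, αvβ5, αvβ6) and by α5β1, and through an adjoining site that is read by α4β1 and α9β1 and that thrombin and matrix metalloproteinases expose or cut. CD44, which binds hyaluronan, serves as a further receptor. Each integrin is a pair of 1 α and 1 β chain.

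Both integrin sites lie in the same coding exon of Spp1, exon 6 of 7 of transcript Spp1-201. The stretch of 57 bases printed, part of that exon, is chr5:104439463-104439519 on the plus strand of GRCm38, and the codons were found in 6 of the 7 coding transcripts of GENCODE M21. It is shown because the integrin α-chain genes below divide by which of these sites their pairs read. In the first copy the capitals mark the Arg-Gly-Asp codons (bases 104439481 to 104439489), and in the second the 7 codons that follow (bases 104439490 to 104439510).
Spp1 stretch, αv and α5 site: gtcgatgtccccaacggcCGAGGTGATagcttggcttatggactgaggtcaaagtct
Spp1 stretch, α4 and α9 site: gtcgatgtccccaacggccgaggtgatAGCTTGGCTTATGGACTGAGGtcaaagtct
The codons adjoin with no base between them. The deposited values are 1 per gene, so they do not show which Spp1 transcripts, and hence which exons, the reads came from.

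The Spp1 promoter window from RefSeq (GRCm38.p6, chr5:104434861-104435110, plus strand, 250 bases before the start) is shown because Spp1 was higher in the Arid1a KO libraries of both systems. Capitals mark matches to a RUNX motif, TGTGGT (minus strand, -128 to -123 from the start), and an ETS motif, AGGAAG (minus strand, -148 to -143, and plus strand, -112 to -107), which do not overlap.
Spp1 promoter: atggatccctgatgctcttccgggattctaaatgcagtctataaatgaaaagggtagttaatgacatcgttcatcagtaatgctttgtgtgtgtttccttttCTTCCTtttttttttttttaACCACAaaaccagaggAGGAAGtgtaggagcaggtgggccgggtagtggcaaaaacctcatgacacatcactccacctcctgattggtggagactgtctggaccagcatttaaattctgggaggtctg
Of all 32851 promoter windows of this length, searched on both strands, 14.0% held the RUNX motif and 29.5% the ETS motif. Among the 11 windows found for 9 of the 10 genes, all but Itgb3, the RUNX motif stood in those of Spp1 and Itga4, and the ETS motif in those of Spp1, Cd44, Itgav, Itgb1 and Itgb6. An AP-1 motif, TGANTCA, and an NF-kB motif, held by 6.75% and 3.90% of all windows, were in 0 of the 11. These are matches of letters in a window and not measured binding sites.

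Several facts about the libraries bear on the results. In the epithelium, Arid1a itself averaged 25.4 ± 3.13 RPKM in controls and 30.2 ± 1.23 RPKM in the group labelled as its knockout (SD, n = 3 each), and was therefore not lower there, although 1 value per gene cannot show the loss of an exon. In Myc-CaP it was 60.7 ± 0.36 TPM (SD, n = 2) with EV and 39.9 ± 0.58 (SD, n = 2) in Arid1a KO. Despite the sort against CD45, its gene Ptprc ranged from 26.0 to 30.3 RPKM in control libraries and from 56.2 to 58.1 RPKM in those labelled Arid1a KO, and all 11 macrophage markers rose (limma, adjusted p under 0.05), with a summed level of 2744 to 3163 RPKM against 5023 to 5762 RPKM. Of all genes tested in the epithelium, 27.5% rose by that test. The epithelial marker Epcam, the gene of the sort, was 279 to 351 RPKM in controls and 183 to 225 RPKM in the libraries labelled Arid1a KO. The 6 fibroblast markers summed to 1683 to 2456 RPKM in controls and 1401 to 1971 RPKM in those labelled Arid1a KO. Among them the collagen gene Col1a1 was 473 to 697 RPKM in controls and 490 to 752 RPKM in those labelled Arid1a KO. The part of fibroblasts in the epithelium values below was not tested. In bulk samples, a change in the share of cells of a type and a change in RNA per cell cannot be told apart. In Myc-CaP, Ptprc, Adgre1 and Csf1r were at most 0.158 TPM in any library. The epithelial genes Epcam and Cdh1 were at most 0.386 TPM. Krt8 was 1.07 and 0.790 TPM with EV against 40.3 and 38.8 TPM in Arid1a KO, Krt14 was 0.265 and 0.452 against 0.774 and 6.04 TPM, and Krt5 was listed at 0 but for 1.98 TPM in Arid1a KO library 2. The replicate 2 libraries of Myc-CaP stood apart in both groups, with the collagen gene Col1a1 at 19.4 (EV) and 7.45 TPM (Arid1a KO) against 0.211 and 0.347 TPM in replicate 1.

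Spp1 was far higher in the epithelium labelled Arid1a KO. Control libraries A to C stood at 33.5, 34.03 and 32.9 RPKM, and the 3 of the other group, in the same order, at 518, 517 and 427 RPKM. The groups were far apart and the 3 control values nearly equal. The means, 33.5 ± 0.56 and 487 ± 52.3 RPKM (SD, n = 3 each), differed by 14.6-fold, or by 3.82 ± 0.09 (standard error) on the log2(value + 1) scale used for all differences here. This difference ranked 11 among the 16275 genes tested, those with a mean of at least 0.5 RPKM. By level, Spp1 stood between ranks 2069 and 2130 in the control libraries and between ranks 94 and 128 in the Arid1a KO libraries.

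In Myc-CaP, Spp1 was already one of the more abundant transcripts with EV, and it was higher again in Arid1a KO. It stood at 468 and 479 TPM with EV and at 1106 and 1165 TPM in Arid1a KO. Both Arid1a KO libraries lay above both EV libraries, and replicate 1 and replicate 2 gave like values although they differ in Col1a1. The means of 473 ± 7.59 and 1135 ± 41.5 TPM (SD, n = 2 each) differed by 2.40-fold, or by 1.26 ± 0.06 (log2 difference). The rank by level was 313 and 298 of 13974 with EV and 129 and 125 in Arid1a KO, and the difference ranked 157.

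Macrophages are a known source of osteopontin, and their markers, like Spp1, were higher in the epithelium labelled Arid1a KO. The macrophage genes Adgre1 and Csf1r went from 41.4 to 42.9 and 98.8 to 106 RPKM in controls to 68.6 to 81.9 and 162 to 178 RPKM in the libraries labelled Arid1a KO. The median difference of the 11 markers was 0.89, against 3.82 for Spp1, and Gpnmb, at 12.2 to 13.5 RPKM against 35.04 to 38.9 RPKM, had a log2 difference of 1.45. The part of these cells in the Spp1 value was not tested. In Myc-CaP 3 of the 11 markers were at 0 in every library, Trem2 and C1qa among them. Over its libraries Cd14 was 6.70 to 10.2 TPM and Cd68 0.823 to 1.90 TPM. There Spp1 was higher in Arid1a KO, and Gpnmb was 282 and 271 TPM with EV and 459 and 435 TPM in Arid1a KO.

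**Figure D1:**
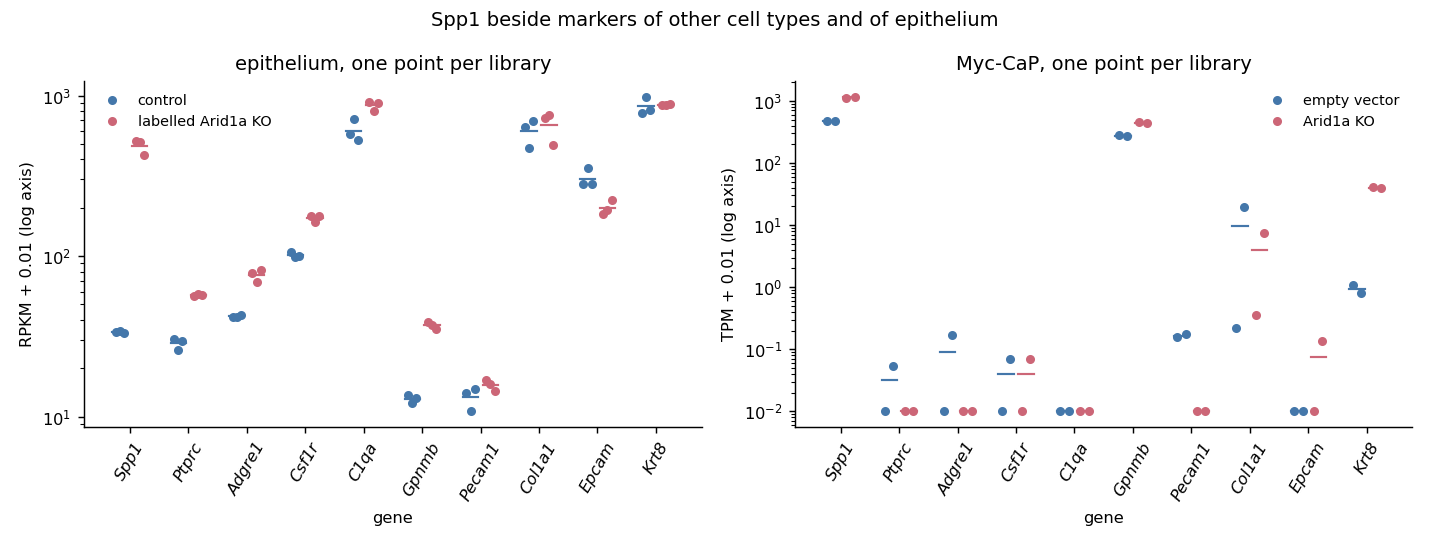
Levels of Spp1 and of marker genes (x axis) in each library, as RPKM in the epithelium and TPM in Myc-CaP, plus 0.01, on log y axes, with control or EV in blue, Arid1a KO in red and bars at the group means. In the epithelium Ptprc, Adgre1, Csf1r and Gpnmb lie higher in the libraries labelled Arid1a KO, as Spp1 does, while in Myc-CaP Ptprc, Adgre1 and Csf1r lie at or near the floor of the plot and Spp1 between 468 and 1165 TPM.

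Nearly the whole receptor set was higher in the epithelium labelled Arid1a KO. Of the 10 genes, 9 were higher with groups that did not overlap, while Itgb6 overlapped. Among all genes tested, 66.7% did not overlap (32.4% higher, 34.4% lower), and 57.1% passed the limma test (27.5% higher, 29.6% lower). The median log2 difference of the 10 genes was 0.75 and that of all genes -0.03. Because the genes were chosen with this difference known, nothing is read from these counts. A rescaling of the libraries to the same RPKM sum moved the median of all genes to 0.11 and the split of calls from 4471 higher of 9294 to 6046 higher of 9323, and the 9 differences stayed above 0. In Myc-CaP, 8 of the 10 genes reached the minimum mean. Of these, 4 had groups that did not overlap, Spp1 and Itgb3 higher and Itga5 and Cd44 lower, against 51.5% of all genes (24.9% higher, 26.6% lower). Of all genes tested in Myc-CaP, 6.43% passed the limma test (4.54% higher, 1.89% lower).

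**Figure D2:**
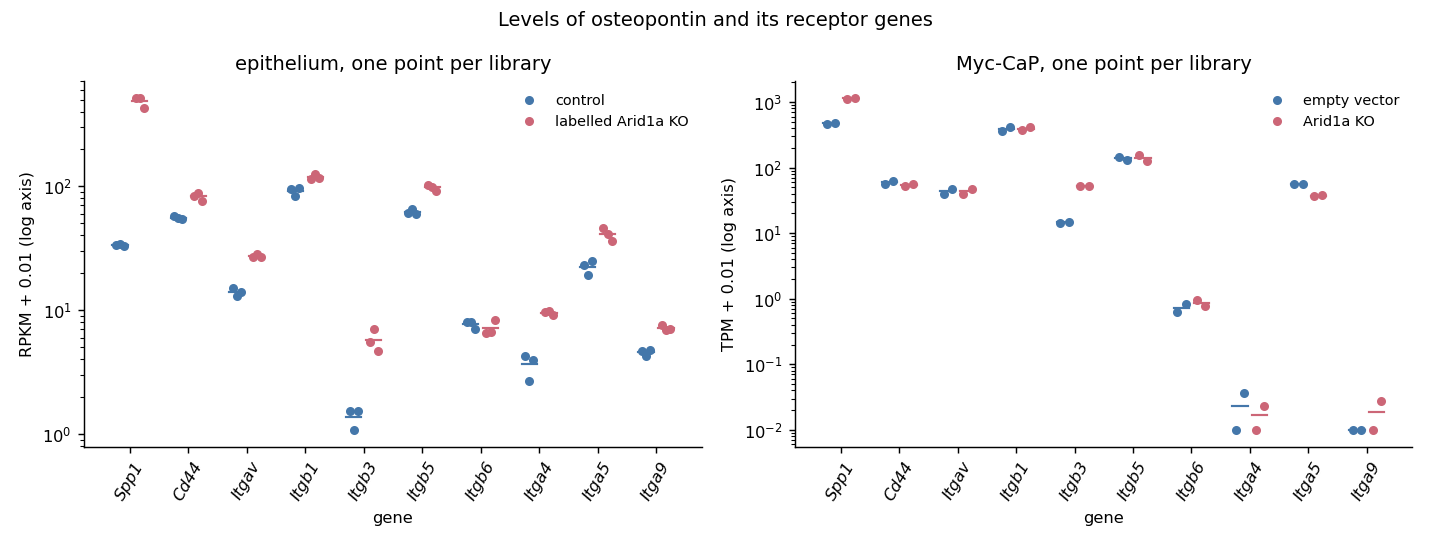
Level of each of the 10 genes (x axis) in each library, as RPKM in the epithelium (left) and TPM in Myc-CaP (right), plus 0.01, on log y axes, with control or EV in blue, Arid1a KO in red and bars at the group means. In the epithelium the red points lie above the blue for every gene but Itgb6, whereas in Myc-CaP the groups separate upward for Spp1 and Itgb3 alone, downward for Itga5 and, by less, Cd44, and Itga4 and Itga9 lie at or near the floor.

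Cd44, the receptor that also holds hyaluronan, was 57.1, 55.9 and 54.1 RPKM in the control epithelium and 83.7, 88.5 and 76.0 RPKM in that labelled Arid1a KO. All Arid1a KO values were above all control values, with a log2 difference of 0.56 ± 0.07. In Myc-CaP it was 57.0 and 62.5 TPM with EV and 52.7 and 55.8 TPM in Arid1a KO. Both Arid1a KO values lay below both EV values by a small margin, with a log2 difference of -0.14 ± 0.07. Leukocytes also carry CD44, and the leukocyte list (4 of 5 markers higher and 1 lower) had a summed level of 712 to 746 RPKM in control epithelium and 798 to 859 RPKM in that labelled Arid1a KO. Its part in the Cd44 value was not tested.

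Itgav, the αv chain common to most of the Arg-Gly-Asp receptors, was 15.0, 12.995 and 14.0 RPKM in control epithelium and 26.9, 28.4 and 26.8 RPKM in that labelled Arid1a KO. The ratio of the means was 1.95-fold, with a log2 difference of 0.92 ± 0.07 and no overlap. In Myc-CaP the values of 39.8 and 47.0 TPM with EV and 40.1 and 46.9 TPM in Arid1a KO overlapped almost fully, with a log2 difference of 0.003 ± 0.12.

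Of the β chains that pair with αv, Itgb3 differed most in both systems. The β3 chain is known for its place in the platelet receptor αIIbβ3 and in the αvβ3 integrin of osteoclasts and growing vessels. It was scarce in control epithelium, at 1.51, 1.07 and 1.52 RPKM, and stood at 5.53, 6.996 and 4.64 RPKM in the libraries labelled Arid1a KO. The means of 1.37 ± 0.26 and 5.72 ± 1.19 RPKM (SD, n = 3 each) differed by 4.19-fold, and the log2 difference of 1.498 ± 0.14, which the added 1 lowers for such low values, ranked 257 of 16275. In Myc-CaP, Itgb3 was 14.3 and 14.9 TPM with EV and 52.4 and 52.2 TPM in Arid1a KO. That 3.59-fold difference, 1.78 ± 0.07 on the log2 scale, ranked 51 of 13974 and so stood above that of Spp1.

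Platelets carry β3 as well. In the epithelium the platelet list had 2 markers higher and 1 lower of the 4 tested. Its chemokine gene Ppbp was 0.343, 0.254 and 0.444 RPKM in controls and 78.2, 79.7 and 67.2 RPKM in the libraries labelled Arid1a KO, while Pf4 was 28.0 to 32.8 against 37.3 to 39.8 RPKM. Gp1bb, a chain of the von Willebrand factor receptor, fell from 3.00 to 4.14 RPKM to 1.93 to 2.66 RPKM. Itga2b, the αIIb partner of β3 on platelets, fell from 2.22 to 2.91 RPKM to 1.66 to 1.85 RPKM (limma, adjusted p = 0.026). The summed level of the list was 32.3 to 37.2 RPKM against 110 to 123 RPKM, and 31.98 to 37.0 RPKM against 41.1 to 42.9 RPKM without Ppbp. Gp1bb and Itga2b are named here after their values were seen. In Myc-CaP 2 of the 7 platelet markers reached the minimum mean, and the sum of the list was 12.2 to 12.8 TPM with EV and 15.6 to 15.7 TPM in Arid1a KO. Without Ppbp that sum was lower in Arid1a KO, at 5.39 and 3.67 TPM against 5.56 and 5.60 TPM with EV. The part of platelets in the Itgb3 values was not tested.

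The other αv partners did not share that pattern in Myc-CaP. Itgb5, whose product forms the vitronectin receptor αvβ5, was 61.2, 65.1 and 59.5 RPKM in control epithelium and 103, 98.0 and 92.0 RPKM in that labelled Arid1a KO, with no overlap and a log2 difference of 0.65 ± 0.07. In Myc-CaP it was 147 and 132 TPM with EV and 153 and 127 TPM in Arid1a KO, so the groups overlapped and the log2 difference was 0.0003 ± 0.11. Itgb6, an epithelial chain that activates latent TGF-β as αvβ6, was the gene that overlapped in the epithelium. Its values were 8.003, 8.07 and 6.97 RPKM in controls and 6.55, 6.63 and 8.27 RPKM in the libraries labelled Arid1a KO, and its log2 difference of -0.09 ± 0.10 became 0.06 when libraries were rescaled to the same sum. In Myc-CaP Itgb6 was low, at 0.617 and 0.823 TPM with EV and 0.949 and 0.762 TPM in Arid1a KO, again with overlap.

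Itgb1, the common β chain that joins αv, α4, α5 and α9 among many others, was the most abundant integrin gene of the set in both systems. It was 95.2, 83.9 and 96.1 RPKM in control epithelium and 114, 126 and 117 RPKM in that labelled Arid1a KO, which did not overlap, with a log2 difference of 0.38 ± 0.08. In Myc-CaP its 361 and 411 TPM with EV and 372 and 416 TPM in Arid1a KO overlapped, with a log2 difference of 0.03 ± 0.09.

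Itga5, the α chain of the fibronectin receptor α5β1, differed in opposite directions in the 2 systems. In the epithelium it was 23.1, 19.3 and 24.7 RPKM in controls and 45.5, 41.4 and 36.4 RPKM in the libraries labelled Arid1a KO, all above the controls, with a log2 difference of 0.85 ± 0.11. In Myc-CaP it was 55.8 and 55.7 TPM with EV and 36.5 and 37.8 TPM in Arid1a KO, both below EV. That log2 difference, -0.57 ± 0.06, ranked 13604 of 13974 from the highest.

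The chains that read the second site, α4 and α9, were the lower 2 of the 4 α chains of the set in the epithelium and were at or near 0 in Myc-CaP. Itga4, a chain of leukocyte adhesion to VCAM-1, was 4.29, 2.69 and 3.96 RPKM in controls and 9.62, 9.74 and 9.13 RPKM in the libraries labelled Arid1a KO, with a log2 difference of 1.19 ± 0.13. Itga9, which also binds tenascin-C, was 4.63, 4.28 and 4.79 RPKM against 7.60, 6.90 and 7.05 RPKM, with a log2 difference of 0.56 ± 0.07. Neither gene overlapped between the groups. The part of leukocytes in the Itga4 value was not tested. In Myc-CaP, Itga4 was listed at 0 and 0.0264 TPM with EV and at 0 and 0.0134 TPM in Arid1a KO, and Itga9 at 0 in all but Arid1a KO library 2, with 0.0180 TPM. Both fell below the minimum mean and were not tested.

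**Figure D3:**
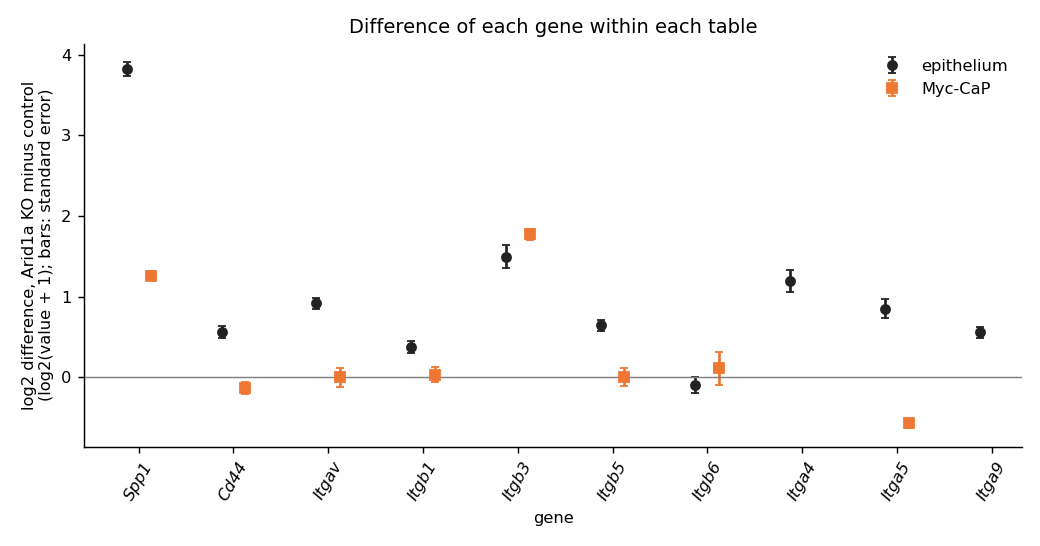
Log2 difference (y axis, Arid1a KO minus control or EV, on log2(value + 1)) with its standard error for each gene (x axis), in the epithelium (black circles) and Myc-CaP (orange squares). Spp1 and Itgb3 lie above 0 in both systems (3.82 and 1.498 in the epithelium, 1.26 and 1.78 in Myc-CaP), Itga5 lies on opposite sides of 0 (0.85 and -0.57), and Itga4 and Itga9 have no Myc-CaP point.

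The order of levels differed between the groups in a few places. In control epithelium the order of mean RPKM was Itgb1, Itgb5, Cd44, Spp1, Itga5, Itgav, Itgb6, Itga9, Itga4 and Itgb3, and the ranges of neighbours overlapped for Itga9 and Itga4 alone. In the libraries labelled Arid1a KO Spp1 headed the list, followed by Itgb1, Itgb5, Cd44, Itga5, Itgav and Itga4. The last 3 genes there, Itga9, Itgb6 and Itgb3, could not be ordered beyond their spread. In Myc-CaP Spp1 headed the order in both groups, followed by Itgb1, Itgb5 and Cd44. Next came Itga5, Itgav and Itgb3 with EV but Itgb3, Itgav and Itga5 in Arid1a KO, where Itgb3 at 52.2 to 52.4 TPM lay just under the 52.7 to 55.8 TPM of Cd44. The gene lengths the authors divided by are not stated, and the order between genes rests on them.

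Set against its receptors within each library, Spp1 passed from a lower to a higher level than Cd44 and Itgb1 in the epithelium. Spp1 over Cd44 was 0.587 to 0.609 in control libraries and 5.61 to 6.18 in those labelled Arid1a KO. Spp1 over Itgb1 was 0.343 to 0.405 against 3.64 to 4.52. In Myc-CaP, Spp1 over Cd44 was 7.66 to 8.21 with EV and 20.9 to 21.0 in Arid1a KO. Spp1 over Itgb3, by contrast, was lower in Arid1a KO, at 21.1 to 22.3 against 32.2 to 32.8 with EV, as the β3 chain differed by more than the ligand.

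For an integrin pair the scarcer chain limits how many pairs its transcripts could supply, as far as transcripts stand for protein. Each pair was read on its own, although αv is shared among several β chains and β1 among many α chains. Which chain limits a pair in the presence of the others was not tested. The comparison of chains also rests on the unstated gene lengths. In control epithelium the α chain was the lower in 5 of the 7 pairs considered (αvβ1, αvβ5, α4β1, α5β1 and α9β1) in every library, and the β chain was the lower in αvβ3 and αvβ6. The same held in the libraries labelled Arid1a KO and in Myc-CaP with EV. In Myc-CaP Arid1a KO the αvβ3 pair changed sides. Itgb3 over Itgav was 0.316 to 0.359 with EV and 1.11 to 1.31 in Arid1a KO, where Itgav was the lower chain in both libraries. In the epithelium the same ratio was 0.0824 to 0.108 in controls and 0.173 to 0.246 in the libraries labelled Arid1a KO, so that β3 remained the scarcer chain.

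As a share of the summed level of the 4 β chains, β3 went from 0.676% to 0.924% in control epithelium to 2.09% to 2.95% in that labelled Arid1a KO. In Myc-CaP it went from 2.66% to 2.73% with EV to 8.77% to 9.04% in Arid1a KO. The β1 chain made up the largest share in all 10 libraries, from 53.1% to 58.6% in control epithelium and from 69.0% to 73.5% in Myc-CaP with EV. The β6 share was 4.25% to 5.10% in control epithelium and 2.79% to 3.72% in that labelled Arid1a KO. It was under 0.164% of the sum in Myc-CaP libraries. Among the 4 α chains, α5 held 49.1% to 52.0% in control epithelium and 45.9% to 50.8% in that labelled Arid1a KO. In Myc-CaP, α5 held 54.2% and 58.4% with EV, while in Arid1a KO αv was the larger, at 52.3% and 55.3%.

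**Figure D4:**
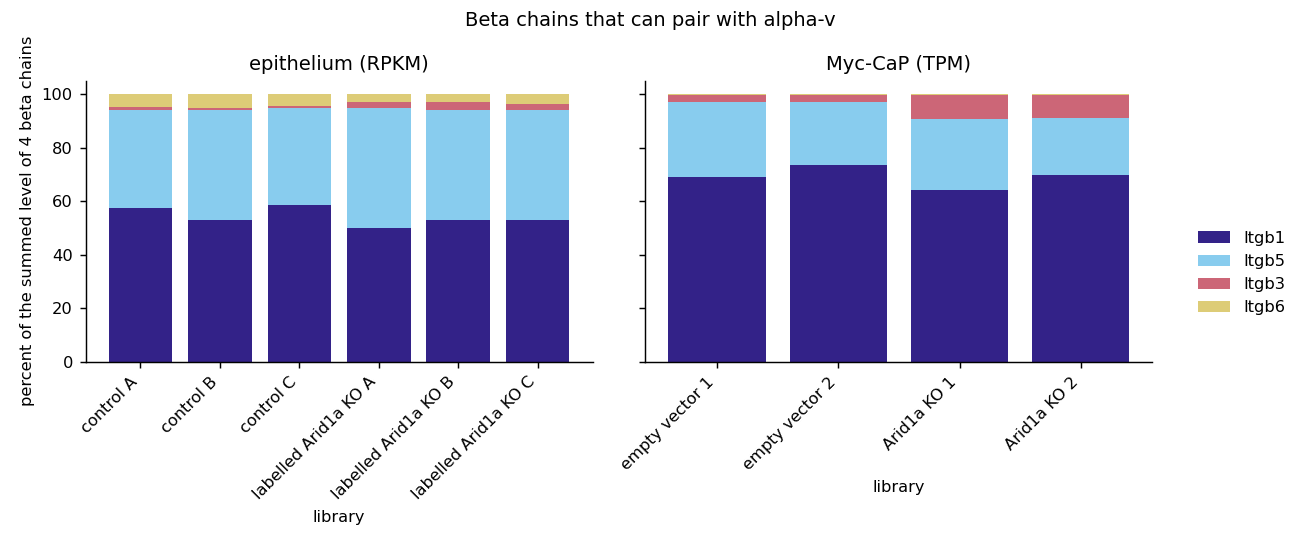
Share of each β chain (y axis, percent of the summed level of Itgb1, Itgb5, Itgb3 and Itgb6) in each library (x axis), from RPKM in the epithelium and TPM in Myc-CaP, as stacked bars from 0. The red Itgb3 band is wider in each Arid1a KO library than in the controls of its system, 2.09% to 2.95% against 0.676% to 0.924% in the epithelium and 8.77% to 9.04% against 2.66% to 2.73% in Myc-CaP.

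Among the 12122 genes tested in both tables, the 5 whose pattern lay nearest to that of Spp1 were Msln, Arg1, Ifi202b, Atg9b and Gm6166. Likeness was the root mean square difference in log2(value + 1) over all 10 libraries, each gene centred within each table, and the values were 0.217, 0.334, 0.352, 0.385 and 0.446. The measure is governed by the epithelium, where the differences are larger. Msln, which encodes the surface protein mesothelin, was 17.3 to 22.4 RPKM in control epithelium and 208 to 259 RPKM in that labelled Arid1a KO, and 124 and 125 TPM against 213 and 219 TPM in Myc-CaP. Arg1, which encodes arginase 1, was 25.9 to 28.4 RPKM against 189 to 256 RPKM in the epithelium. In Myc-CaP Arg1 was 0.386 and 0.614 TPM with EV and 2.87 and 2.67 TPM in Arid1a KO. With 0.1 added in place of 1, Msln, Ifi202b and Atg9b remained among the nearest 5.

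The other genes of the pathway were read from 5 lists, each tested by limma with Benjamini-Hochberg adjustment over all genes of the table, and are set against the 57.1% of genes called in the epithelium and the 6.43% in Myc-CaP. These lists too were chosen with earlier results of these data known. Their calls, counts and medians are therefore given as a description, and nothing is read from how they compare with all genes. Of 21 further ligands of these integrins, 15 were tested in the epithelium, where 6 rose, 4 fell and 5 did not pass, with a median log2 difference of 0.33 against -0.03 for all genes. Fibronectin, Fn1, the ligand of α5β1, rose from 33.6 to 59.9 RPKM in controls to 305 to 426 RPKM, a log2 difference of 2.83 ± 0.23 (adjusted p = 7.8e-05). Tenascin-C, Tnc, a ligand of α9β1 and αvβ3, rose by 2.47 ± 0.14 (adjusted p = 1.91e-05). Thbs1 and Tgfbi, 2 matrix proteins that bind αv integrins, rose by 1.53 ± 0.13 and 1.45 ± 0.07 (adjusted p = 9.92e-05 and 1.36e-05). Vitronectin, Vtn, the classical ligand of αvβ3 and αvβ5, fell by 1.07 ± 0.17 on the log2 scale (adjusted p = 0.00156), from a low level of 2.04 to 3.77 RPKM. In Myc-CaP 8 of the list were tested and 1 passed. This was Fn1, at 876 and 919 TPM with EV and 1190 and 1250 TPM in Arid1a KO, a log2 difference of 0.44 ± 0.06 (adjusted p = 0.0217).

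The hyaluronan list, which holds the enzymes that make and cut the other ligand of CD44 and its further binding partners, had 10 of 12 genes tested in the epithelium. Of these, 6 rose and 2 fell, and the median log2 difference was 0.59. The 3 synthases moved in different directions. Has3 rose by 2.17 ± 0.09 (adjusted p = 5.64e-06) and Has2 by 0.99 ± 0.16 (adjusted p = 0.0014), from 0.774 to 0.886 and 0.819 to 1.39 RPKM in controls to 6.42 to 7.55 and 2.43 to 3.78 RPKM. Has1, the highest of the 3 in controls at 13.8 to 24.3 RPKM, fell by 1.26 ± 0.21 on the log2 scale (adjusted p = 0.00163). The CD44-binding proteoglycan gene Srgn rose by 0.83 ± 0.09 and the hyaluronidase gene Tmem2 by 0.71 ± 0.07 (adjusted p = 0.000286 and 0.00017). Srgn is abundant in leukocytes, of whose 5 markers 4 rose and Cd52 fell in the same libraries, and their part in it was not tested. In Myc-CaP 2 of 6 tested passed. Hyal1, a lysosomal hyaluronidase, rose by 1.22 ± 0.11 (adjusted p = 0.00926), and Tmem2 fell by 0.51 ± 0.09 on the log2 scale (adjusted p = 0.0392).

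Of 19 other integrin chains, 17 were tested in the epithelium, where 10 rose and 2 fell, with a median log2 difference of 0.40. The largest changes were in chains of leukocytes and of basal epithelium. The leukocyte chains Itgam, Itgax and Itgb2 rose by 1.67 ± 0.12, 1.52 ± 0.07 and 1.21 ± 0.11 (adjusted p = 4.66e-05, 9.41e-06 and 0.000121), in the same libraries as the macrophage markers. The chains Itga6 and Itgb4, which form the laminin receptor α6β4 of hemidesmosomes, rose by 1.17 ± 0.08 and 1.48 ± 0.07 (adjusted p = 4.66e-05 and 9.64e-06). In Myc-CaP the 3 leukocyte chains were at most 0.0944 TPM, and 1 of the 8 chains tested passed. Itga3, a laminin receptor chain, rose by 0.51 ± 0.06 (adjusted p = 0.0145).

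The list of enzymes that cut, cross-link, phosphorylate or dephosphorylate osteopontin, or shed CD44, had the highest median of the 5 lists in the epithelium, 0.64, and 13 of its 14 tested genes passed, 11 up and 2 down. The macrophage elastase Mmp12, which cuts osteopontin, rose from 2.28 to 3.36 RPKM to 35.1 to 38.9 RPKM, by 3.35 ± 0.11 (adjusted p = 2.35e-06). Acp5, the tartrate-resistant phosphatase that removes phosphate from osteopontin and that macrophages and osteoclasts make, rose by 1.98 ± 0.11 (adjusted p = 2.05e-05). Fam20c, the secretory pathway kinase that phosphorylates it, rose by 1.05 ± 0.08 (adjusted p = 5.13e-05), and Tgm2, the transglutaminase that cross-links it, by 1.16 ± 0.10 (adjusted p = 8.52e-05). The epithelial protease Mmp7, which cuts in the site shown above, fell by 1.88 ± 0.22 on the log2 scale (adjusted p = 0.000354), from 513 to 819 RPKM in controls to 141 to 220 RPKM. In Myc-CaP 12 of the 18 genes were under the minimum and 3 of 6 tested passed. Adam10, which sheds CD44, rose by 0.50 ± 0.09 and the cathepsin gene Ctsb by 0.34 ± 0.06 (adjusted p = 0.0404 for both), whereas Tgm2 fell by 0.45 ± 0.05 on the log2 scale (adjusted p = 0.0141), from 687 and 683 TPM to 509 and 496 TPM.

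The last list held adhesion effectors, cytoplasmic proteins that tie integrins or CD44 to actin or pass on their signals. All 23 of its genes were tested in the epithelium. Of these, 12 rose and 4 fell, and the median log2 difference was 0.29. Msn, which encodes moesin and links CD44 to actin, rose by 1.35 ± 0.11, and Iqgap1, a scaffold that binds CD44, by 1.16 ± 0.08 (adjusted p = 8.85e-05 and 4.09e-05). The integrin activators talin and kindlin-3, Tln1 and Fermt3, rose by 0.81 ± 0.08 and 0.80 ± 0.05 (adjusted p = 0.000135 and 3.58e-05), and Lims1, a partner of integrin-linked kinase, by 0.76 ± 0.07 (adjusted p = 0.000144). Kindlin-3 is chiefly a protein of blood cells, and the part of those cells was not tested. In Myc-CaP 20 were tested and 4 passed, with a median of -0.06 against -0.01 for all genes. Ptk2b, the focal adhesion kinase relative PYK2, rose by 1.26 ± 0.19 (adjusted p = 0.0286). The focal adhesion genes Pxn, Fermt2 and Zyx fell by 0.62 ± 0.10, 0.46 ± 0.08 and 0.41 ± 0.06 on the log2 scale (adjusted p = 0.0357, 0.0417 and 0.0274). All 25 genes named from the 5 lists in the epithelium passed under every alternative that tested them, while each of the 11 named in Myc-CaP lost its call when any 1 library was left out, which left 0 calls in each list.

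**Figure D5:**
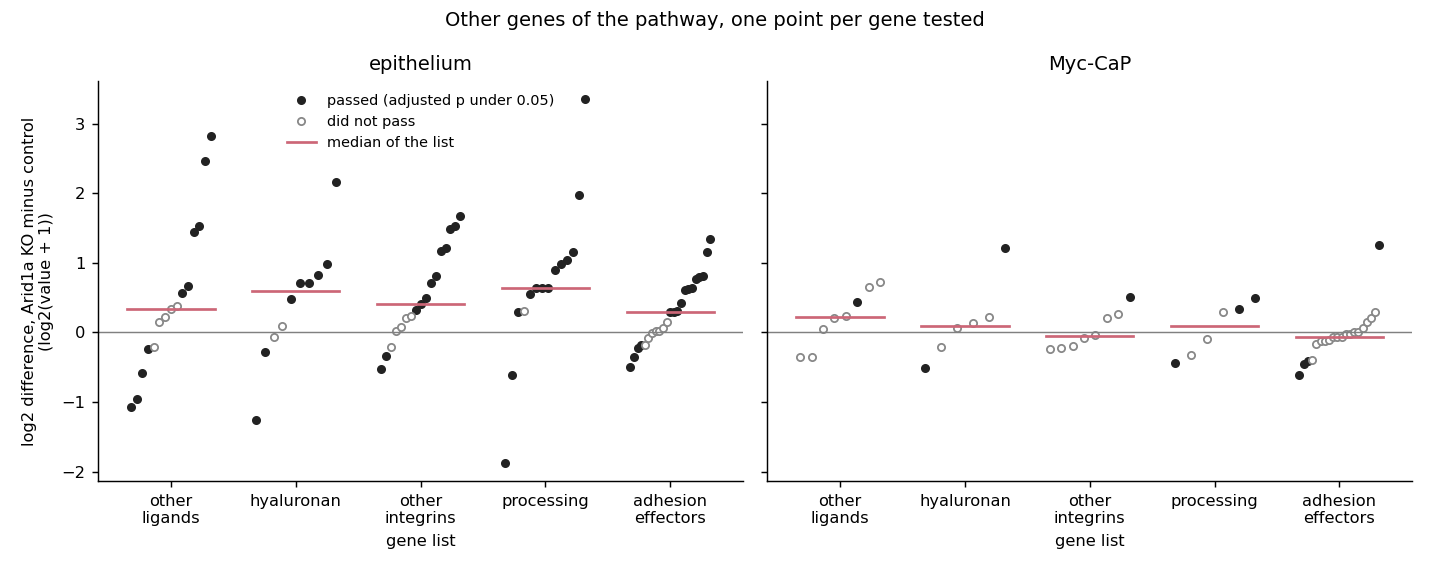
Log2 difference (y axis, Arid1a KO minus control or EV) of each tested gene of the 5 lists (x axis), with filled points for genes that passed limma at an adjusted p under 0.05, open points for those that did not and red lines at the list medians. In the epithelium the medians lie between 0.29 and 0.64 with single genes below 0, such as Mmp7 at -1.88, and in Myc-CaP they lie between -0.06 and 0.22, where most points are open.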

How the data were processed

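RNA-seq was measured in 10 libraries. Per the study's methods, the authors aligned reads to mm10 with TopHat2 and counted them with HTSeq-count; the submitters' processing notes list HISAT2, HTSeq, DESeq2 and mm10. The authors deposited RPKM for the epithelium and TPM for Myc-CaP. Gene lengths behind both are not given in the sources used here, and depth is unknown. Values were taken as log2(value + 1), which understates differences of low genes. Genes averaging at least 0.5 in a table were fitted with limma 3.58.1 (lmFit, eBayes with trend) in R 4.3.3, each table on its own, two-sided, with Benjamini-Hochberg adjustment over all genes and calls at an adjusted p under 0.05. Scripts were tested on simulated data. The 10 genes and all lists were chosen with earlier results of these data known. From each list up to 5 called genes with the largest absolute log2 difference per table are named. Groups came from the genotype labels. Sequences came from GENCODE M21 on GRCm38 and RefSeq promoters. Alternatives were another pseudocount (0.1), no filter, a minimum mean of 5, quantile normalization, rescaling to the same sum, no trend, a replicate block, leaving out each library and, chosen after seeing the data, removal of a trend on gene length. A further part of the mouse genotype is not reported here.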

Additional observations from a re-analysis of the deposited data

Results flagged for a closer look

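For 14 genes of the set and its 5 lists, every Arid1a KO library lay on 1 side of its controls in the epithelium and on the opposite side in Myc-CaP, 11 of them higher in the epithelium and 3 lower. This difference between the systems was not tested, because the 2 tables were normalized separately. Of all genes tested, 32.4% lay higher without overlap and 34.4% lower in the epithelium, against 24.9% and 26.6% in Myc-CaP. How many of all genes lay on opposite sides was not counted, so nothing is read from the 14. Some of the Myc-CaP differences given below are small, such as that of Tln1. Among the osteopontin receptors, the log2 difference of Cd44 was 0.56 in the epithelium and -0.14 in Myc-CaP, and that of Itga5 was 0.85 and -0.57. In the same order, the values were 0.71 and -0.51 for the hyaluronidase gene Tmem2, 1.16 and -0.45 for the transglutaminase gene Tgm2, 0.64 and -0.33 for the urokinase gene Plau, and 0.64 and -0.10 for Adam17, a protease that sheds surface proteins. Of the adhesion effectors, Msn was at 1.35 and -0.13, Iqgap1 at 1.16 and -0.0693, and Tln1 at 0.81 and -0.0297. Fermt3 was at 0.80 and -0.39, and Pxn at 0.29 and -0.62. The 3 genes lower in the epithelium and higher in Myc-CaP were the integrin ligand genes Mfge8, at -0.59 and 0.24, and Adam15, at -0.24 and 0.20, and the hyaluronidase gene Hyal2, at -0.28 and 0.22. In Myc-CaP, Tmem2, Tgm2 and Pxn passed the limma test, and each lost its call when any 1 library was left out.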

How the results depend on the processing

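Of the values of the 10 genes, 122 of 139 in the epithelium and 93 of 95 in Myc-CaP moved by less than the spread between replicates, and 0 reversed a call. The epithelium difference of Spp1 lay between 3.77 and 4.06 under all alternatives, and that of Itgb3 between 1.36 and 1.99. In the epithelium a minimum mean of 5 left fewer genes to test and gave 5872 calls (4 in the hyaluronan list) against 9294 (8). In Myc-CaP the 899 calls became 358 with no filter. These held 0 further ligands, 1 hyaluronan gene, 0 processing enzymes and 0 adhesion effectors. Without the trend there were 451 calls, with 0, 1, 0 and 0 in the same order and 0 other integrin chains. Leaving out 1 library gave 47 to 76 calls and 0 in each of the 5 lists, with fewer samples. Removal of the length trend, chosen after seeing the data, gave 1 hyaluronan gene, Hyal1. Tmem2 was not tested there, because that fit left out genes without an annotated length. With a replicate block Myc-CaP gave 2771 calls, with 3 ligands, 4 hyaluronan genes and 8 adhesion effectors. That fit spends a further term on the same few libraries. The deviations of same-numbered libraries correlated at 0.195 in Myc-CaP, and at -0.057 to 0.041 in the epithelium. With 2 libraries per group, the 2 pairs of Myc-CaP necessarily share 1 value. The labels name no shared batch, and the 2 pairs of Myc-CaP, whose replicate 2 libraries stood apart in Col1a1, do not settle whether the numbers pair them. Except for the construction named, the cause was not tested. Without counts, the precision of low values such as Itgb6 in Myc-CaP is unknown.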

Other observations

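Markers of other cell types are given as values. In the epithelium the basal keratin gene Krt5 was 262 to 346 RPKM in controls and 711 to 850 RPKM in the libraries labelled Arid1a KO, while of the 6 epithelial markers 2 rose and 2 fell. All 7 seminal vesicle genes fell, with a median log2 difference of -5.91 and a summed level of 19411 to 21910 RPKM against 647 to 1631 RPKM. Of the other lists, 4 of 7 neutrophil, 2 of 5 T cell, 3 of 4 B cell and 1 of 7 endothelial markers rose, 3 of 6 fibroblast markers fell, and 1 of 5 smooth muscle markers rose and 4 fell. These counts are of genes that passed limma at an adjusted p under 0.05. Of all genes tested in the epithelium 57.1% passed, 27.5% higher and 29.6% lower, and nothing is read from the counts. In Myc-CaP the neutrophil, T cell, B cell, endothelial and seminal vesicle lists had 0 genes above the minimum mean.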
